A study of Mus musculus with 4 samples.

Results

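Mpo, Elane, Prtn3, Ctsg and Ms4a3 are 5 genes of early neutrophil precursors, picked by symbol from 41214 gene identifiers counted in 4 RNA-seq libraries of mouse megakaryocytes. All 5 were among the 15063 genes that passed the filter on low counts. They were chosen with the counts of these same libraries known, so their differences between genotypes are given as a description, with no test. In every library labelled knockout each of the 5 was lower than in the wild-type library of the same Cre model, by 2.83-fold to 4.20-fold.

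The libraries came from cells sorted out of leg and upper arm bones of 8-week-old C57Bl/6 mice as lineage-negative and positive for cKit, CD41 and CD61. Gfi1b, which encodes a zinc finger repressor of megakaryocyte and red cell development, was labelled KO or WT in 2 Cre models. This gave 4 groups of 1 library each, PF4-Cre knockout, PF4-Cre wild-type, ROSA-Cre knockout and ROSA-Cre wild-type, and the wild-type mice bear the same Cre label as their partners. The Pf4 promoter drives expression in the megakaryocyte lineage. What drives Cre in the ROSA-Cre model, which exons were removed and how many mice made up a library are not stated. The lineage antibodies are not named in the labels, so whether a granulocyte antibody was among them is not known here. Gene counts totalled 59595680, 61652843, 21835165 and 24869421 in the order of the groups above. Levels are CPM, counts per 1000000 gene counts scaled by TMM, a normalisation that assumes most genes are alike between libraries.

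Neutrophils make their granules in sequence while they mature. The first, azurophil granules are filled at the promyelocyte stage with myeloperoxidase and a small family of serine proteases, and the genes for these proteins are shut off before the later, specific granules are made. Mpo encodes myeloperoxidase, the heme enzyme that makes hypochlorous acid, and Elane, Prtn3 and Ctsg encode neutrophil elastase, proteinase 3 and cathepsin G. Ms4a3 encodes a membrane protein with several transmembrane segments that marks granulocyte-monocyte progenitors. It is not a granule protein, so the name of the set fits the other 4 genes. GFI1, the paralogue of GFI1B, is required for neutrophil development, and in humans mutations of either GFI1 or ELANE cause congenital neutropenia.

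Gfi1b itself went against a simple reading of the labels. It had 84744 counts in the PF4-Cre library labelled knockout and 10137 in its PF4-Cre wild-type partner, and 55122 counts in the ROSA-Cre library labelled knockout and 5864 in the ROSA-Cre wild-type library. A gene count adds up all exons, so it cannot show whether a deleted part is missing, and each direction here rests on the labels. Gfi1 rose as well, to 39.9 and 95.03 CPM in the PF4-Cre and ROSA-Cre libraries labelled knockout, against 7.88 and 8.05 CPM in the wild-type libraries (log2 fold change 2.92 with an SE of 0.28, n = 2 libraries per genotype, adjusted p = 0.00129 in the quasi-likelihood test of edgeR over both models after Benjamini-Hochberg adjustment). None of 12 megakaryocyte markers had a count of 0 in any library. The same held for 12 monocyte markers and 18 late neutrophil granule genes, so counts above 0 do not tell these cells apart. The summed level of the megakaryocyte markers was 7564 CPM (PF4-Cre labelled knockout), 7085 CPM (PF4-Cre wild-type), 6581 CPM (ROSA-Cre labelled knockout) and 9865 CPM (ROSA-Cre wild-type).

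The 5 genes lie on 4 chromosomes of GRCm38, and all are protein-coding. Mpo is on chromosome 11 from 87793581 to 87804413 (plus strand), Ctsg on chromosome 14 from 56099881 to 56102574 (minus strand) and Ms4a3 on chromosome 19 from 11629496 to 11640851 (minus strand). Prtn3 (79874476 to 79883174) and Elane (79886247 to 79888215) stand side by side on the plus strand of chromosome 10, with 3072 bases between them. Because the 5 were low together in the libraries labelled knockout, their promoters are shown. They are RefSeq sequences of GRCm38.p6 from 250 bases before to 50 bases after the start. Mpo's is at chr11:87793534-87793833, Elane's at chr10:79886062-79886361 and Prtn3's at chr10:79879417-79879716, all on the plus strand, and Ctsg's is at chr14:56102525-56102824 and Ms4a3's at chr19:11640802-11641101, both on the minus strand. The RefSeq starts of Mpo, Elane and Prtn3 lie inside the longer spans that GENCODE gives these genes, furthest inside for Prtn3. Those of Ctsg and Ms4a3 match the GENCODE start. Distances of motifs are counted from the RefSeq start. Each promoter is written 5′ to 3′ along its gene. Capitals mark GAGGAA, the letters of a purine-rich site that PU.1, an ETS factor of myeloid cells, can bind.
Mpo: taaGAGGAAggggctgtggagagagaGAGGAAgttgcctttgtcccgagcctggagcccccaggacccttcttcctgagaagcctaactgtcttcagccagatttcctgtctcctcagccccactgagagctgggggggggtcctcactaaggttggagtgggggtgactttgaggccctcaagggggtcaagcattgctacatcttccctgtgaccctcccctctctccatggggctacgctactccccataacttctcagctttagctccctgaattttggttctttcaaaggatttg
Elane: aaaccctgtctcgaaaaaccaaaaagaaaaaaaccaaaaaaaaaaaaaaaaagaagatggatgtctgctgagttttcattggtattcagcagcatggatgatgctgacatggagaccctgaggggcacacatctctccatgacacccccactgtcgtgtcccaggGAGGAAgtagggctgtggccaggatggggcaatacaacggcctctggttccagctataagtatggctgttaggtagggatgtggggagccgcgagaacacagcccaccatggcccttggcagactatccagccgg
Prtn3: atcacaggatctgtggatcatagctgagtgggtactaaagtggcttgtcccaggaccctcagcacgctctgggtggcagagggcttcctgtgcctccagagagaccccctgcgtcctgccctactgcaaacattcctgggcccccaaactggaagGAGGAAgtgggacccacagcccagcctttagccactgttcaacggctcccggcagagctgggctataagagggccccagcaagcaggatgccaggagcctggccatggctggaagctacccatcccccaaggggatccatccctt
Ctsg: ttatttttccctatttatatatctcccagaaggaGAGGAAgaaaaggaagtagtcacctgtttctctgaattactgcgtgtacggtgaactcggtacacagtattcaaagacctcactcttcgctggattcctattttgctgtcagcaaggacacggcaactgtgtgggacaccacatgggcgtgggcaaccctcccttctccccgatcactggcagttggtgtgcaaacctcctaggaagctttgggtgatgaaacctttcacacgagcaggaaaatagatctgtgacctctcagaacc
Ms4a3: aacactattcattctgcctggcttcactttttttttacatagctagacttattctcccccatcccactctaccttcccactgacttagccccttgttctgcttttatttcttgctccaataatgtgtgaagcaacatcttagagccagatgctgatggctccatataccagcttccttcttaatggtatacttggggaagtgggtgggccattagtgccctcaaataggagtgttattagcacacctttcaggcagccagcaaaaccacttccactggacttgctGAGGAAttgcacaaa

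GAGGAA, searched on both strands, stood in all 5 promoters, and in 28.3% of 32851 RefSeq promoters of the same length. Mpo had it 247 and 224 bases before the start, Ctsg 216, Prtn3 95 and Elane 85 bases before the start, and Ms4a3 36 bases after it. None of these matches overlapped another motif searched. MYB's AACNG was found in 4 of the 5 (every one but Ms4a3) and in 80.3% of all promoters, and the AATC core of GFI1 and GFI1B sites in 2 (Mpo and Ctsg) against 73.1%. The C/EBP letters TTNNGNAA occurred in 1, Ms4a3, against 40.7%, and RUNX's TGTGGT and the TATA box TATAAA in 1 each, Ctsg, against 16.8% and 13.6%. CCAAT occurred in 2, Elane and Ms4a3, against 37.4%. A match describes letters in a window of 300 bases and says nothing of binding.

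Myeloperoxidase had the most counts of the 5 in every library. Mpo had 11790 counts (195 CPM) in the PF4-Cre library labelled knockout and 41584 counts (696 CPM) in its PF4-Cre wild-type partner. In ROSA-Cre it had 4017 counts (179 CPM) in the library labelled knockout and 17505 counts (711 CPM) in the wild-type library. In each Cre model the library labelled knockout was thus the lower of the pair. The level was 3.57-fold lower in PF4-Cre (95% Clopper-Pearson interval 3.50 to 3.64, for counting error only) and 3.97-fold lower in ROSA-Cre (3.83 to 4.10).

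The 3 serine proteases were likewise lower in each library labelled knockout than in its wild-type partner. Ctsg, a chymotrypsin-like protease, had 2868 counts (47.4 CPM) in the PF4-Cre library labelled knockout and 10443 counts (175 CPM) in its PF4-Cre wild-type partner. It had 1031 counts (46.0 CPM) in the ROSA-Cre library labelled knockout and 4764 counts (194 CPM) in the ROSA-Cre wild-type library. Its difference was the widest of the 5 in both models, 3.69-fold lower in PF4-Cre (3.54 to 3.84) and 4.20-fold lower in ROSA-Cre (3.93 to 4.50).

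Elane, whose product cleaves elastin and bacterial proteins, had 1989 counts (32.9 CPM) in the PF4-Cre library labelled knockout and 6460 counts (108 CPM) in its PF4-Cre wild-type partner. In ROSA-Cre it had 1033 counts (46.1 CPM) in the library labelled knockout and 4276 counts (174 CPM) in the wild-type library. Elane was 3.29-fold lower in PF4-Cre (3.13 to 3.46) and 3.77-fold lower in ROSA-Cre (3.52 to 4.04).

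Prtn3, a near relative of elastase, had 2558 counts (42.3 CPM) in the PF4-Cre library labelled knockout and 7156 counts (119.7 CPM) in its PF4-Cre wild-type partner. In ROSA-Cre it had 991 counts (44.3 CPM) in the library labelled knockout and 4444 counts (181 CPM) in the wild-type library. Its difference was the least even between the models, 2.83-fold lower in PF4-Cre (2.71 to 2.96) and 4.08-fold lower in ROSA-Cre (3.81 to 4.38). The libraries labelled knockout were close to each other in Prtn3 CPM, and the wild-type libraries were not. Prtn3's annotated span overlaps that of Plppr3 on the opposite strand by 159 bases, and since the kit kept the strand but the setting used in counting is not given, reads there cannot be told apart.

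Ms4a3 had the fewest counts of the 5 in every library. It had 1340 counts (22.2 CPM) in the PF4-Cre library labelled knockout and 4200 counts (70.3 CPM) in its PF4-Cre wild-type partner, and 405 counts (18.1 CPM) in the ROSA-Cre library labelled knockout and 1431 counts (58.1 CPM) in the ROSA-Cre wild-type library. Each library labelled knockout again lay below its wild-type partner. Ms4a3 was 3.17-fold lower in PF4-Cre (2.98 to 3.38) and 3.22-fold lower in ROSA-Cre (2.88 to 3.60), the most even pair of the 5. It was also the only member whose CPM was higher in PF4-Cre than in ROSA-Cre in both genotypes.

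**Figure D1:**
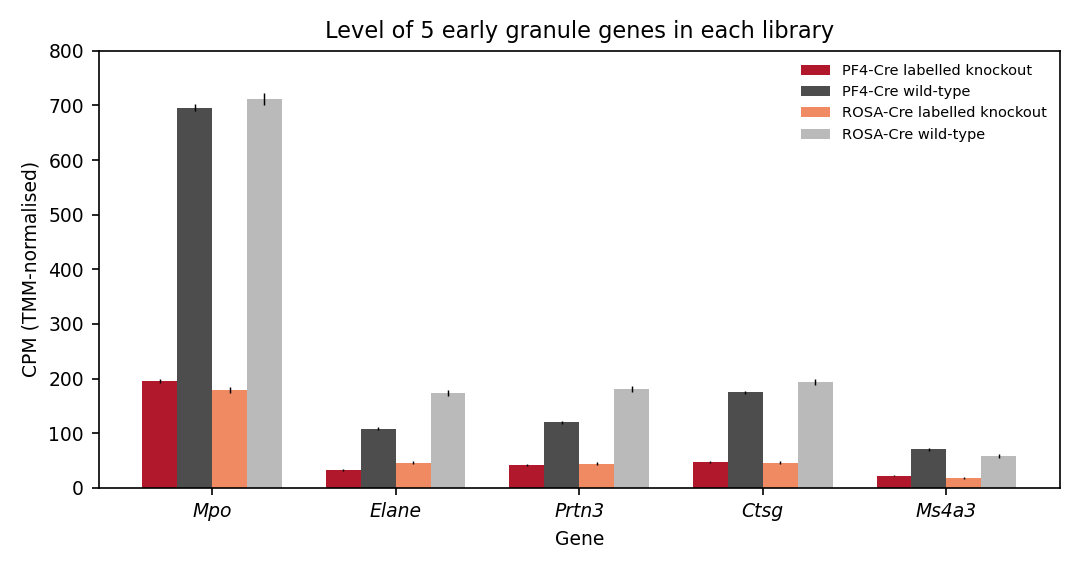
CPM (linear axis) of the 5 genes in each of the 4 libraries, one bar per library, with lines for the 95% counting error of that library alone (normal approximation to the count). Mpo stands at 195 and 179 CPM in the PF4-Cre and ROSA-Cre libraries labelled knockout, against 696 and 711 CPM in their wild-type partners.

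All 5 genes were at least 2-fold lower in PF4-Cre, as were 2.76% of the 15063 genes tested, in ROSA-Cre (7.83% of tested genes) and in both models at once (1.48%). Lower in both models by any size were 40.7% of tested genes. Since the choice of the 5 used these counts, nothing is read from that. The median log2 ratio of the 5 (normalised counts with a pseudocount of 1) was -1.72 in PF4-Cre and -1.99 in ROSA-Cre, beside medians over all tested genes of -0.05 and -0.0010. The 5 ratios lay within 0.38 of each other on the log2 scale in PF4-Cre and within 0.39 in ROSA-Cre. Over both models the fitted genotype log2 fold changes were -1.98 for Ctsg, -1.91 for Mpo, -1.81 for Elane, -1.76 for Prtn3 and -1.67 for Ms4a3. Elane's varied most over the fits that leave out a library, at -1.43 without ROSA-Cre wild-type and -2.14 without PF4-Cre wild-type. Those fits also drop the Cre model term, so they cannot tell a genotype change from a difference between the models. Whether the ratios differ between the models could not be tested with 1 library per group. By counting error alone, the intervals of PF4-Cre and ROSA-Cre did not meet for Mpo, Elane, Prtn3 and Ctsg, and overlapped for Ms4a3. In sorted bulk cells, fewer cells of a type and less RNA per cell cannot be told apart.

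Together the 5 genes took 0.0345% of gene counts in the PF4-Cre library labelled knockout and 0.113% in its PF4-Cre wild-type partner. They took 0.0342% in the ROSA-Cre library labelled knockout and 0.130% in the ROSA-Cre wild-type library. The make-up of this small pool varied less between libraries than its size. Mpo held 57.4% of it in the PF4-Cre library labelled knockout and 59.5% in PF4-Cre wild-type. For ROSA-Cre these shares were 53.7% in the library labelled knockout and 54.0% in the wild-type one. Elane's share went with the model rather than the genotype, at 9.68% and 9.25% in the PF4-Cre libraries (labelled knockout, then wild-type) and 13.8% and 13.2% in the ROSA-Cre libraries in that order. Ctsg stayed between 13.8% and 15.0% in all 4 libraries.

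**Figure D2:**
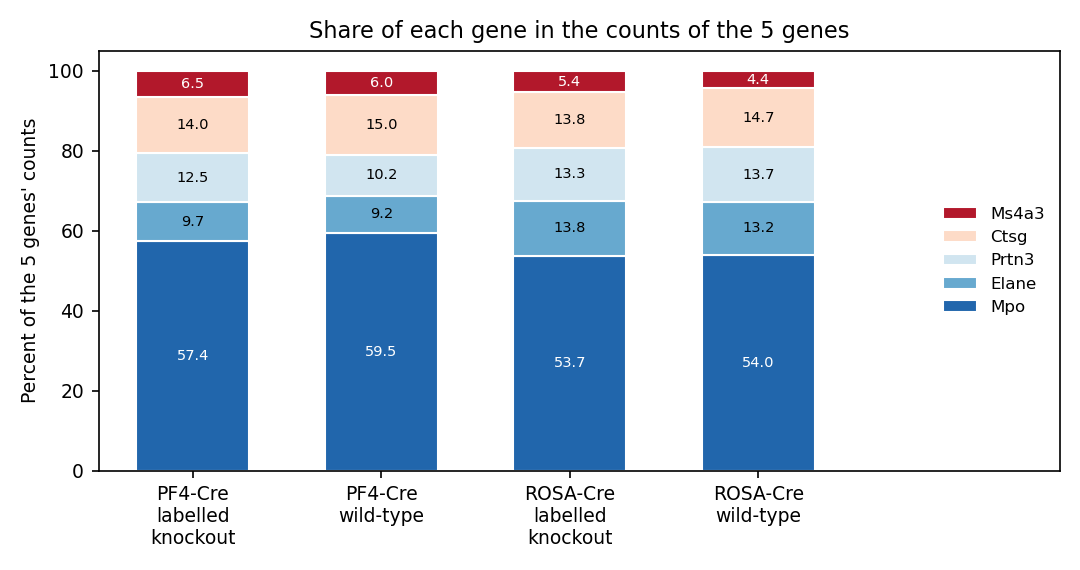
Percent of the counts of the 5 genes that each gene held, one stacked column per library. Mpo fills 53.7% to 59.5% of every column, and the Elane segment is 13.8% and 13.2% in the ROSA-Cre columns against 9.68% and 9.25% in the PF4-Cre columns.

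Levels of different genes were compared per kilobase of annotated exon. In the PF4-Cre library labelled knockout the order was Mpo (56.9 CPM per kb), Ctsg (45.9), Elane (33.4), Prtn3 (24.4) and Ms4a3 (11.8). The PF4-Cre wild-type library had the same order, with 203 CPM per kb for Mpo, 169 for Ctsg, 109.8 for Elane, 69.1 for Prtn3 and 37.3 for Ms4a3. The order in the ROSA-Cre library labelled knockout was Mpo (52.4 CPM per kb), Elane (46.9), Ctsg (44.6), Prtn3 (25.6) and Ms4a3 (9.60), and Elane and Ctsg did not differ there beyond counting error (ratio of levels 1.05, interval 0.964 to 1.15). In the ROSA-Cre wild-type library Mpo (208 CPM per kb) and Ctsg (187) came before Elane (177), Prtn3 (104) and Ms4a3 (30.9). All other neighbours in these orders differed beyond counting error, and there is no replicate of a library to give more than that. The orders also rest on the annotated exon lengths, and error in those lengths is not part of the intervals. Among the 15063 genes tested, Mpo ranked 756th by level per kb in the PF4-Cre library labelled knockout and 197th in PF4-Cre wild-type. It ranked 785th in the ROSA-Cre library labelled knockout and 195th in ROSA-Cre wild-type.

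Across the models, within a genotype, the 5 genes did not move as a block. Elane was higher in ROSA-Cre than in PF4-Cre, with ratios of 1.40 in the libraries labelled knockout (counting interval 1.30 to 1.51) and 1.61 in the wild-type libraries (1.55 to 1.67). For Prtn3 the ratio between the wild-type libraries was 1.51 (1.45 to 1.57), while the ratio between the libraries labelled knockout was 1.05 (0.972 to 1.13). Ctsg had ratios of 0.971 (0.904 to 1.04) in the libraries labelled knockout and 1.11 (1.07 to 1.15) in the wild-type libraries, and Mpo had 0.920 (0.888 to 0.954) and 1.02 (1.004 to 1.04) in that order. Ms4a3 was lower in ROSA-Cre, with ratios of 0.816 (0.729 to 0.913) in the libraries labelled knockout and 0.827 (0.779 to 0.879) in the wild-type libraries.

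The genes next to the 5 on their chromosomes were looked at for the same pattern. On chromosome 10, Plppr3, a phosphatase-related membrane protein gene that overlaps the start of Prtn3's span, had 8.37 CPM in the PF4-Cre library labelled knockout and 25.0 CPM in the wild-type one, and 10.8 and 32.9 CPM in the ROSA-Cre libraries in that order (log2 fold change -1.59, SE 0.18, adjusted p = 0.00234 by the edgeR test). Cfd, the complement factor D gene 2637 bases beyond Elane, had 0 counts in both PF4-Cre libraries and 1 in each ROSA-Cre library, where 0 of 59595680 or 61652843 allows up to 0.0503 or 0.0487 CPM. Med16, the next gene, did not pass the test (-0.34, SE 0.13, adjusted p = 0.118), and Ptbp1, on the other side, fell by a log2 value of 0.48 (SE 0.13, adjusted p = 0.0365). Beside Mpo, the peroxidase gene Lpo had at most 1 count in any library, Tspoap1 fell by 1.28 (SE 0.31, adjusted p = 0.0286) and Mks1, a cilium gene, rose by 1.35 (SE 0.34, adjusted p = 0.0308). Supt4a, on the far side of Tspoap1, did not pass the test (0.07, SE 0.14, adjusted p = 0.766). Next to Ctsg, Mcpt8, a protease of basophils, did not pass the test (-0.01, SE 0.21, adjusted p = 0.974), and Gzme and Gzmd had no counts. Next to Ms4a3, the related Ms4a2, a chain of the IgE receptor, had 569 counts in the PF4-Cre library labelled knockout and 560 in its PF4-Cre wild-type partner, with 153 and 149 in the ROSA-Cre libraries in that order (log2 fold change 0.08, SE 0.24, adjusted p = 0.847). Ms4a6d, beyond Ms4a2, did not pass the test either (-0.40, SE 0.35, adjusted p = 0.455). Mcpt4, near Ctsg, and Oosp2 and Oosp1, near Ms4a3, did not pass the filter on low counts.

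The genes whose levels over the 4 libraries ran closest to the mean of the 5 were found by Euclidean distance between centred log2(CPM + 1) values, leaving out genes that averaged under 5 CPM. Ctsg (0.169), Mpo (0.202) and Prtn3 (0.259) lay nearer to that mean than any gene outside the set, which is partly so by construction, since the mean is made of the 5 genes themselves, whereas 4 outside genes were nearer than Elane (0.450) and Ms4a3 (0.451). These 4 were Prss57 (0.336), a granule serine protease gene also on chromosome 10, the kinase gene Matk (0.386), Plppr3 (0.392) and Tm6sf1 (0.45). Prss57 had 241 counts in the PF4-Cre library labelled knockout and 818 in PF4-Cre wild-type. In ROSA-Cre it had 119 in the library labelled knockout and 445 in the wild-type one. Its ratios were 0.291 in PF4-Cre and 0.294 in ROSA-Cre, beside 0.304 and 0.266 for Elane. Prss57 was picked for its nearness to the mean of the 5 in these libraries, so like ratios follow from that choice. Genes further out included Cotl1, Hspa1b (whose reads can be shared with its near-identical copy Hspa1a), Mdga1, Slc7a5 and Chdh.

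Proteins that load, activate or accompany the early granule proteins were then counted in a list that leaves the 5 out. The list was chosen with earlier results of these data known, and its member Prss57 is also the nearest outside profile. The calls in it are thus a description. Of 16 such genes 15 were tested, and 7 fell and 0 rose by edgeR's quasi-likelihood test (n = 2 libraries per genotype). Of all tested genes 9.59% were lower, 12.6% higher and 22.2% either by that test. At an unadjusted p under 0.05, 9 of the 15 fell and 1 rose, beside 2691 lower and 2873 higher of 15063. By the DESeq2 Wald test 9 fell and 0 rose, beside 1328 lower and 1675 higher of 15063. Prss57 fell by a log2 value of 1.77 (SE 0.23, adjusted p = 0.00337), Clec12a, an inhibitory lectin receptor of myeloid cells, by 1.46 (SE 0.17), Plac8 by 1.22 (SE 0.12) and Cd63, a tetraspanin of azurophil granule membranes, by 1.02 (SE 0.18). Igsf6, Cst7 and Gusb were the other 3 that fell. Ctsc, the peptidase that activates the pro-forms of elastase, proteinase 3 and cathepsin G, did not pass the test (0.27, SE 0.14, adjusted p = 0.202), nor did Srgn, the proteoglycan that holds these proteases in granules (-0.02, SE 0.14, adjusted p = 0.95), or the lysozyme gene Lyz2 (-0.14, SE 0.15, adjusted p = 0.528). The median log2 fold change of the 15 was -0.78, beside -0.02 over all tested genes and -1.81 for the 5. The count of calls shrank when any library was left out, in fits that also drop the Cre model term. In all 4 libraries without that term 0 were lower and 0 higher. Calls over all tested genes shrank in these fits too.

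**Figure D3:**
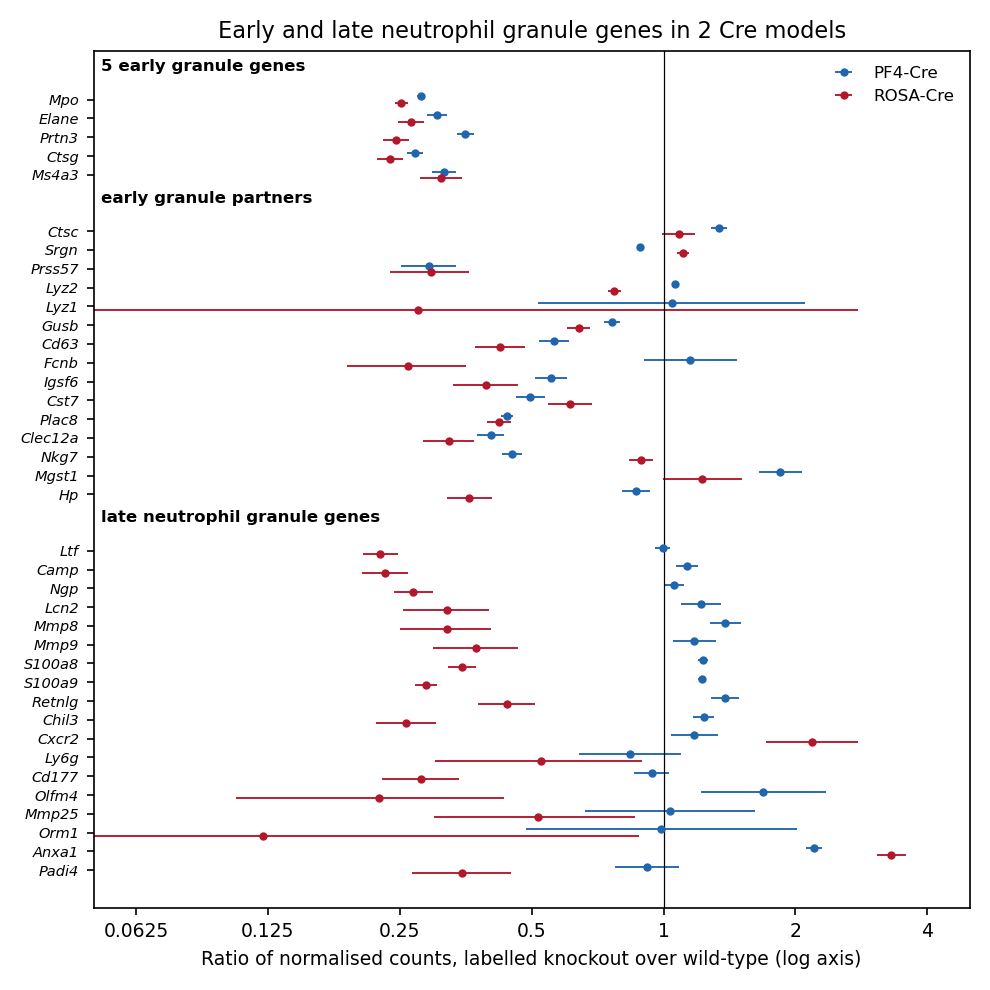
Ratio of normalised counts, labelled knockout over wild-type (log axis), within PF4-Cre (blue) and ROSA-Cre (red) for the 5 genes, the tested early granule partners and the tested late granule genes, with 95% Clopper-Pearson counting intervals (those of Lyz1 and Orm1 in ROSA-Cre run off the axis). The 5 genes lie between 0.238 and 0.353 in both models, and most late granule genes lie left of 1 in ROSA-Cre alone.

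Most genes of the later granules were low in the ROSA-Cre library labelled knockout and not in the PF4-Cre one. Of 18 late granule genes 16 had a ratio below 1 in ROSA-Cre and 5 in PF4-Cre, with median log2 ratios of -1.64 in ROSA-Cre and 0.23 in PF4-Cre, and 11 of the 18 were lower in ROSA-Cre and not lower in PF4-Cre, against 9.35% of tested genes. The difference between models was not tested. The calprotectin subunit gene S100a9, the one with the highest mean CPM over the 4 libraries, had 322 CPM in the PF4-Cre library labelled knockout and 263 CPM in PF4-Cre wild-type, and 69.6 CPM in the ROSA-Cre library labelled knockout and 242 CPM in ROSA-Cre wild-type. Over both models 1 of the 18 rose, Anxa1 (1.43, SE 0.17, adjusted p = 0.00247), which many cell types express, and 0 fell, with 1 lower at an unadjusted p under 0.05 and 0 by the DESeq2 Wald test. By the edgeR test 12.6% of all tested genes rose and 9.59% fell. Of the 15063 tested genes 2691 were lower at an unadjusted p under 0.05, and 1328 by the DESeq2 Wald test. Calls in the list changed when a library was left out. Without the PF4-Cre library labelled knockout most of them were lower, and without ROSA-Cre wild-type Anxa1 no longer passed. Those fits drop the Cre model term, so they cannot tell a genotype change from a difference between the models. The list's median log2 fold change was -0.53. The summed level of the list was 1008 CPM in the PF4-Cre library labelled knockout and 808 CPM in PF4-Cre wild-type, and 347 CPM in the ROSA-Cre library labelled knockout and 792 CPM in ROSA-Cre wild-type. In the same order the 5 early genes summed to 339.7 and 1169 CPM, and 334 and 1317 CPM. None of the 18 was at 0 in any library, and their part in the level of the 5 was not tested.

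**Figure D4:**
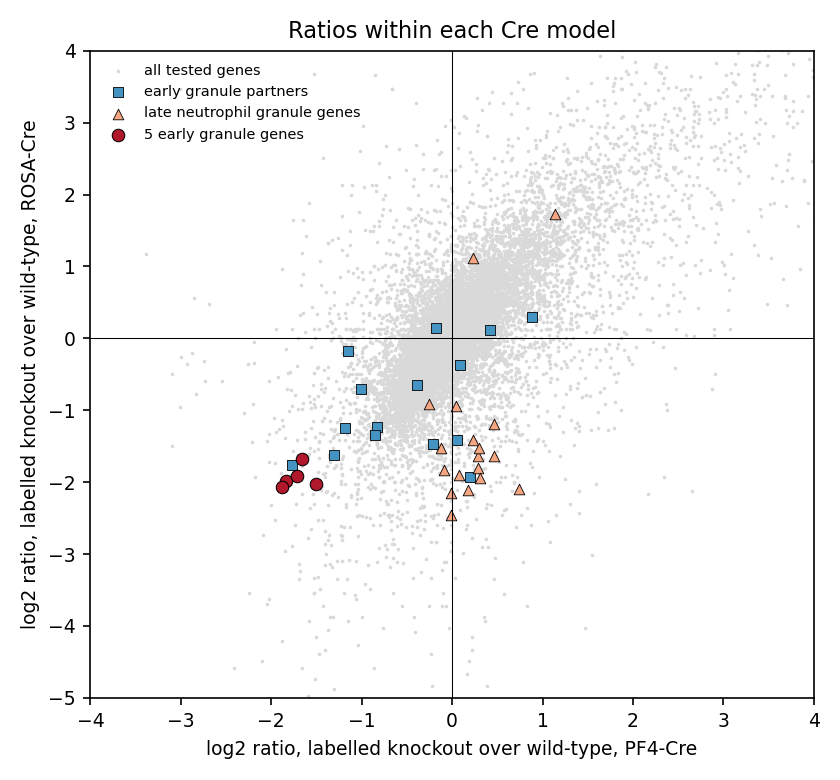
Log2 ratio of labelled knockout over wild-type in PF4-Cre (horizontal axis) and ROSA-Cre (vertical axis) for 15063 tested genes, of which 214 fall outside the axes. The 5 genes form a group between -1.88 and -1.50 for PF4-Cre and between -2.07 and -1.68 for ROSA-Cre, while late granule genes (triangles) mostly sit near 0 in PF4-Cre and below -1 in ROSA-Cre.

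Transcription factors of early granulocytes, in a list that also holds factors of other lineages, went both ways. For the calls in this paragraph, 12.6% of all tested genes were higher, 9.59% lower and 22.2% either by edgeR's quasi-likelihood test. Of 19, 3 rose (Gfi1b, Gfi1 and Gata2, a factor of stem and mast cells, by 1.44, SE 0.21) and 4 fell. Cebpe, which drives the step to specific granules, fell by 1.65 (SE 0.28, adjusted p = 0.00874), Irf8, the monocyte lineage factor, by 1.05 (SE 0.26), and Myc and Gata1 were the other 2. Cebpa, Spi1 (which encodes PU.1), Myb and Runx1, factors known to bind the Mpo or Elane promoter, did not pass the test, with log2 fold changes of -0.44, -0.54, -0.04 and 0.25. Of 15 genes for myeloperoxidase folding and heme supply 8 fell and 1 rose, among them the chaperone Calr (-1.01, SE 0.23) and Alas1, the first enzyme of heme synthesis (-0.92, SE 0.15). Of 7 tested protease inhibitors 3 rose and 1 fell, with Serpinb6b and Serpinb6a up by 0.78 (SE 0.16) and 0.77 (SE 0.16), Serpina3f up by 1.51 (SE 0.37) and the elastase inhibitor gene Slpi down (-1.14, SE 0.33, adjusted p = 0.0462). Of 14 receptors 3 rose, led by the cytokine receptor chain Csf2rb2 (5.14, SE 0.25), and 3 fell, such as Fcgr3 (-1.07, SE 0.21). The median log2 fold changes of these lists were -0.29 (transcription factors), -0.55 (folding and heme), 0.38 (inhibitors) and -0.23 (receptors). The calls in each of these lists were fewer when any library was left out, in fits that also drop the Cre model term. Among the inhibitors the direction of the calls turned without the PF4-Cre library labelled knockout. Over all tested genes the calls were fewer in those fits as well, and lower calls shrank more than higher ones. The loss of calls is thus not particular to these lists.

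Markers of other cells the gate could hold moved in several directions beside the 5. Beside the calls given here, 12.6% of all tested genes were higher, 9.59% lower and 22.2% either by edgeR's quasi-likelihood test. At an unadjusted p under 0.05, 2691 of the 15063 were lower and 2873 higher. By the DESeq2 Wald test 1328 were lower and 1675 higher. Of 12 monocyte markers 4 fell and 0 rose (5 and 0 at an unadjusted p under 0.05, and 4 and 0 by the DESeq2 Wald test). Their summed level was 249 CPM in the PF4-Cre library labelled knockout and 289 CPM in PF4-Cre wild-type, and 132 CPM in the ROSA-Cre library labelled knockout and 339 CPM in ROSA-Cre wild-type. Of 15 tested eosinophil, basophil and mast cell markers 2 rose and 3 fell, with sums of 109 and 129 CPM in the PF4-Cre libraries (labelled knockout, then wild-type) and 368 and 453 CPM in the ROSA-Cre libraries. Of 14 erythroid markers 5 rose and 4 fell (sums 753, 658, 607 and 500.0 CPM in the same order), and of 12 megakaryocyte markers 3 rose and 3 fell. Of 7 tested lymphoid markers 0 rose and 0 fell (1 and 3 at an unadjusted p under 0.05, and 0 and 0 by the DESeq2 Wald test), with sums of 27.0 to 35.4 CPM and up to 7 of the 13 listed genes at 0 in a library. The median log2 fold changes were -0.64 for monocyte, -0.82 for eosinophil, basophil and mast cell, -0.25 for erythroid, -0.31 for megakaryocyte and -0.47 for lymphoid markers. When any library was left out, fewer monocyte and megakaryocyte markers were called. Fewer erythroid markers were called too, except without the PF4-Cre library labelled knockout. Most calls among the eosinophil, basophil and mast cell markers were lower without the ROSA-Cre library labelled knockout and higher without ROSA-Cre wild-type. The sums of that list differ more between the models than between the genotypes. Fits that leave out a library drop the Cre model term, so they cannot tell a genotype change from a difference between the models. By the DESeq2 Wald test 2 eosinophil, basophil and mast cell markers rose and 6 fell. No marker of the monocyte list was at 0 in any library. The part of these cells in the level of the 5 genes was not tested.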

How the data were processed

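The authors deposited 1 table per library of whole-number HTSeq counts by Ensembl gene, without normalisation. Per the submitters' processing notes, TopHat2 2.0.10, SAMtools, HTSeq and DESeq were used with mm10 and GRCm38. The sources used here give no settings, annotation release or strand mode. The 5 HTSeq category lines stayed out; reads without a gene were 32.0% to 36.2% of gene, no-feature and ambiguous reads together. Symbols, coordinates and exonic lengths came from GENCODE M21 for 40340 of 41214 identifiers.

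The genotype effect was fitted with edgeR 4.0.16 (R 4.3.3): TMM, filterByExpr by genotype (minimum count 10), Cre model and genotype as terms, quasi-likelihood F-test, Benjamini-Hochberg adjustment at 0.05 over all 15063 tested genes. That leaves 1 residual degree of freedom. Each p-value sets the genotype change against how far the 2 models disagree on it, moderated across genes. That spread may be technical. Each SE is the log2 fold change divided by the root of its F. Within a model, ratios carry exact intervals, for counting error alone, because PCR copies of a molecule cannot be recognised here. The floor was 3 counts per library. Alternatives included DESeq2 1.42.0.

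The 5 genes and the 11 lists were chosen with earlier results of these data known. In each list up to 4 genes with the smallest p-values and the 2 with the highest mean CPM could be named, besides Gfi1b, Gfi1, the 10 nearest profiles (1 of them is not reported here) and 2 neighbouring genes on each side. Ctsc, Cst7, Gusb, Igsf6, Cebpa, Spi1, Myb, Runx1, Myc and Gata1 were named after their values were seen, and some genes stand in 2 lists. Promoters came from RefSeq (GRCm38.p6).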

Additional observations from a re-analysis of the deposited data

Results flagged for a closer look

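The genes that the naming rule picks from the lists and beside the 5 were screened, and other list genes were not. For 12 of them the ratio of labelled knockout over wild-type lay on opposite sides of 1 in the Cre models, beyond counting error in both. The share of all tested genes that split this way is not given here, so nothing is read from the count. The difference between the models was not tested, since each group had 1 library. It is given as the log2 ratio in ROSA-Cre minus that in PF4-Cre.

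Among the late granule genes it was -2.09 for S100a9, -1.82 for S100a8 and -1.98 for Ngp, each higher in the PF4-Cre library labelled knockout and lower in the ROSA-Cre one. S100a9 had a ratio of 0.287 in ROSA-Cre (0.271 to 0.304) and 1.22 in PF4-Cre (1.20 to 1.25). The same direction held for the protease inhibitor Serpina3g (-1.48), the lysozyme Lyz2 (-0.46), the transferrin receptor Tfrc (-1.31), and the megakaryocyte genes Itga2b (-0.78) and Vwf (-0.80). The opposite direction, lower in PF4-Cre and higher in ROSA-Cre, held for Kit (0.76), Etv6 (0.47), Mcpt8 (0.46) and Srgn (0.32).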

How the results depend on the processing

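The 5 genes were lower in the libraries labelled knockout under every alternative run. Their median genotype log2 fold change of -1.81 became -2.05 without the PF4-Cre wild-type library and ran from -2.05 to -1.77 over the fits that leave out a library. Scaling by total gene counts gave log2 ratios in PF4-Cre of -1.77 for Mpo, -1.44 for Prtn3 and -1.81 for Ctsg, and -1.94 for Mpo in ROSA-Cre, the widest shift being 0.067. Genes past the test numbered 3348 (56.9% higher), 1935 with no filter on low counts (72.7% higher), 162 without the Cre model term (158 higher, 4 lower) and 509 to 883 when a library was left out (82.1% to 90.8% higher). Those fits drop the model term too and assume that the lone library of a genotype varies like the others. The 7 early granule partners past the test became 0 without that term and 1 to 2 without a library. The cause was not tested, though leaving out a library also leaves fewer samples. For the other lists and single genes, 44 counts were over 1.5 times smaller and 3 larger. The balance of higher and lower calls turned in some lists when a library was left out, as given with those lists. The older quasi-likelihood method was added after seeing the data. The Cre model term already pairs each library labelled knockout with its wild-type partner. The labels give no replicate numbers for a further block. The shallower ROSA-Cre libraries carry the wider counting intervals.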
